A study of Mus musculus with 18 samples.

Results

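The genes described here handle heme, iron and zinc in the macrophage: Hmox1, Blvrb, Fth1, Ftl1, Slc40a1, Tfrc, Slc11a1, Mt1, Mt2 and Slc30a1. They were chosen by name and make up 10 of the 31053 genes listed, and all 10 were among the 12290 genes tested. Bone marrow-derived macrophages of 6 mice, 3 wild type (Slc7a7+/+) and 3 knockout (Slc7a7-/-, deleted by a Cre recombinase under LysM, a myeloid promoter), were sequenced in bulk after 24 h in medium with vehicle, with acetylated LDL (Ac-LDL, 50 μg/mL) or with oxidized LDL (Ox-LDL, 100 μg/mL). The mice were 12 weeks old and of a C57Bl/6J background, and the cells of each mouse received all 3 media, which gave 6 groups of 3 libraries. Slc7a7 encodes a subunit of an amino acid transporter of the plasma membrane. Since the concentrations of Ac-LDL and Ox-LDL differed, a difference between them is a difference between those preparations at those amounts.

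Macrophages take up aged red blood cells and recycle their iron. Heme oxygenase-1, the product of Hmox1, opens the heme ring and sets free iron, carbon monoxide and biliverdin. Biliverdin reductase B, encoded by Blvrb, reduces flavins and some forms of biliverdin. Iron is stored inside ferritin, a shell of heavy (Fth1) and light (Ftl1) chains, or leaves the cell through ferroportin, the product of Slc40a1 and the known iron exporter of mammalian cells. Transferrin receptor 1 (Tfrc) brings iron in from the circulation, and Slc11a1 (NRAMP1) moves metal ions out of the phagosome. Metallothioneins (Mt1 and Mt2) are small proteins that bind zinc and copper, and Slc30a1 (ZnT1) exports zinc across the plasma membrane.

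Several of these transcripts carry iron-responsive elements, short hairpins that iron regulatory proteins bind when the cell is short of iron: in the 5′ UTR binding blocks translation, and in the 3′ UTR it protects the transcript from decay. The annotated UTRs were searched for the hairpin: a bulged C, a stem of 5 pairs (G-T pairs allowed) and the loop CAGTG followed by A, C or T. It was found in the 5′ UTR of 23 of 21901 genes (0.105%) and in the 3′ UTR of 100 (0.457%). Among the 10 genes it lay in the 5′ UTR of Fth1, Ftl1 and Slc40a1 and 4 times in the 3′ UTR of Tfrc. These 30-base stretches are shown, 5′ to 3′ on the strand of the gene with the loop in capitals, because they set the genes whose protein can be regulated apart from the transcript, which is what the libraries measured, from the gene whose transcript level is itself the regulated step. Positions are those of GRCm38.
Fth1, chr19:9982731-9982760, plus strand: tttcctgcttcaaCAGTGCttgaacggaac
Ftl1, chr7:45459779-45459808, minus strand: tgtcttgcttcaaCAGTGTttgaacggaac
Slc40a1, chr1:45925465-45925494, minus strand: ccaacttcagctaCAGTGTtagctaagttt
Tfrc, chr16:32631218-32631247, plus strand: taattatcggaagCAGTGCcttccataatt
Tfrc, chr16:32631597-32631626, plus strand: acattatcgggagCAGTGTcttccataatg
Tfrc, chr16:32631662-32631691, plus strand: tctatatcggagaCAGTGAtctccatatgt
Tfrc, chr16:32631709-32631738, plus strand: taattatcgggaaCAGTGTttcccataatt
The elements of Fth1 and Ftl1 were identical at 27 of 30 positions. That of Slc40a1 was identical to each of these at 13 positions, and the 4 elements of Tfrc were identical to one another at 18 to 25 positions.

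The libraries held 1043492 to 1768816 counts (median 1466145). Slc7a7, the deleted gene, lay between 2.22 and 10.9 CPM (counts relative to the library total, scaled by the TMM method) in the knockout libraries and between 11.1 and 29.3 CPM in the wild type libraries. All 8 macrophage markers were detected in every group, and their summed level ran from 21090 to 35820 CPM in wild type and from 12550 to 21250 CPM in knockout libraries. This sum includes Lyz2, the gene of the LysM-Cre locus, which was lower in knockout cells in Ac-LDL and in Ox-LDL (log2 difference -1.23 and -1.24, adjusted p = 0.0148 and 0.0261). In vehicle Lyz2 was also lower, at 11553 to 15303 CPM in knockout and 20474 to 28555 CPM in wild type libraries, but was not called. Erythroid markers, among them the hemoglobin chains, summed to at most 2.18 CPM in any library, so red cell RNA was near 0. Markers of dendritic, lymphoid, mast and stromal cells each summed to at most 25.9 CPM, and those of cycling cells to 524 to 1526 CPM.

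Slc40a1, the iron exporter, rose in Ox-LDL in both genotypes, by 2.85-fold in wild type and 2.60-fold in knockout cells. The Slc40a1 gene (ENSMUSG00000025993) lies at chr1:45908068-45926523 on the minus strand. In wild type mice 1, 2 and 3 its level was 53.8, 49.5 and 59.0 CPM in vehicle, 94.8, 100.35 and 94.4 CPM in Ac-LDL, and 116, 192 and 152 CPM in Ox-LDL. In knockout mice 1, 2 and 3 it was 69.2, 40.2 and 59.2 CPM in vehicle, 88.1, 68.2 and 95.6 CPM in Ac-LDL, and 130.3, 148 and 159 CPM in Ox-LDL. Every mouse showed the same order, with vehicle lowest and Ox-LDL highest, and no Ox-LDL library overlapped a vehicle or Ac-LDL library of its genotype. The log2 difference between Ox-LDL and vehicle was 1.51 ± 0.19 (SE) in wild type and 1.38 ± 0.18 in knockout cells, with adjusted p = 2.21e-05 and 4.44e-05 (edgeR's quasi-likelihood test, adjusted by the Benjamini-Hochberg method). In bulk samples such as these, fewer cells of a type and less RNA per cell cannot be told apart. The summed level of the 8 macrophage markers was 12550 to 14570 CPM in Ox-LDL and 17950 to 21250 CPM in vehicle in knockout cells, while wild type ranges overlapped (21090 to 30160 and 24770 to 35420 CPM). Lyz2 made up most of the knockout sum, with a mean of 8958 CPM in Ox-LDL and 13213 CPM in vehicle. Mean Csf1r, Adgre1, Cd14 and Itgam were also lower there in Ox-LDL, Cd68 and Fcgr1 were similar, and Mertk was higher. Without a block 0 of the 8 were called. The 8 neutrophil markers summed to 142 to 251 CPM in Ox-LDL and 72.8 to 126 CPM in vehicle in wild type cells, with overlapping ranges in knockout cells. The part of either in the differences between Ox-LDL and vehicle given here was not tested. In Ac-LDL the macrophage sum of knockout cells was 15180 to 17640 CPM, also below vehicle. Their cycling markers summed to 1116 to 1526 CPM in Ac-LDL and 961 to 1066 CPM in vehicle. Wild type ranges in Ac-LDL and vehicle overlapped for both sums. The part of these sums in the differences between Ac-LDL and vehicle was not tested.

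Ac-LDL gave intermediate Slc40a1 levels. The mean in wild type cells was 96.5 ± 3.33 CPM (SD, n = 3) in Ac-LDL against 54.1 ± 4.74 CPM in vehicle, groups that did not overlap, but the log2 difference of 0.84 ± 0.20 did not pass the threshold of 0.05 (adjusted p = 0.0577). With the mouse as a block, which compares the media within the cells of each mouse, it passed (adjusted p = 0.00156). In knockout cells the difference was 0.57 ± 0.19 (adjusted p = 0.289 without and 0.0330 with the block). The step from Ac-LDL to Ox-LDL did not pass without the block (adjusted p = 0.458 in wild type and 0.126 in knockout cells) and passed with it (0.00871 and 5.52e-04). Without a block DESeq2 also called it in knockout cells, as did edgeR with no filter in both genotypes and with the compared groups alone in knockout cells. The responses of the genotypes did not differ past the threshold: the knockout response minus the wild type response was -0.26 for Ac-LDL (95% interval -0.83 to 0.30) and -0.13 for Ox-LDL (-0.68 to 0.41).

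**Figure D1:**
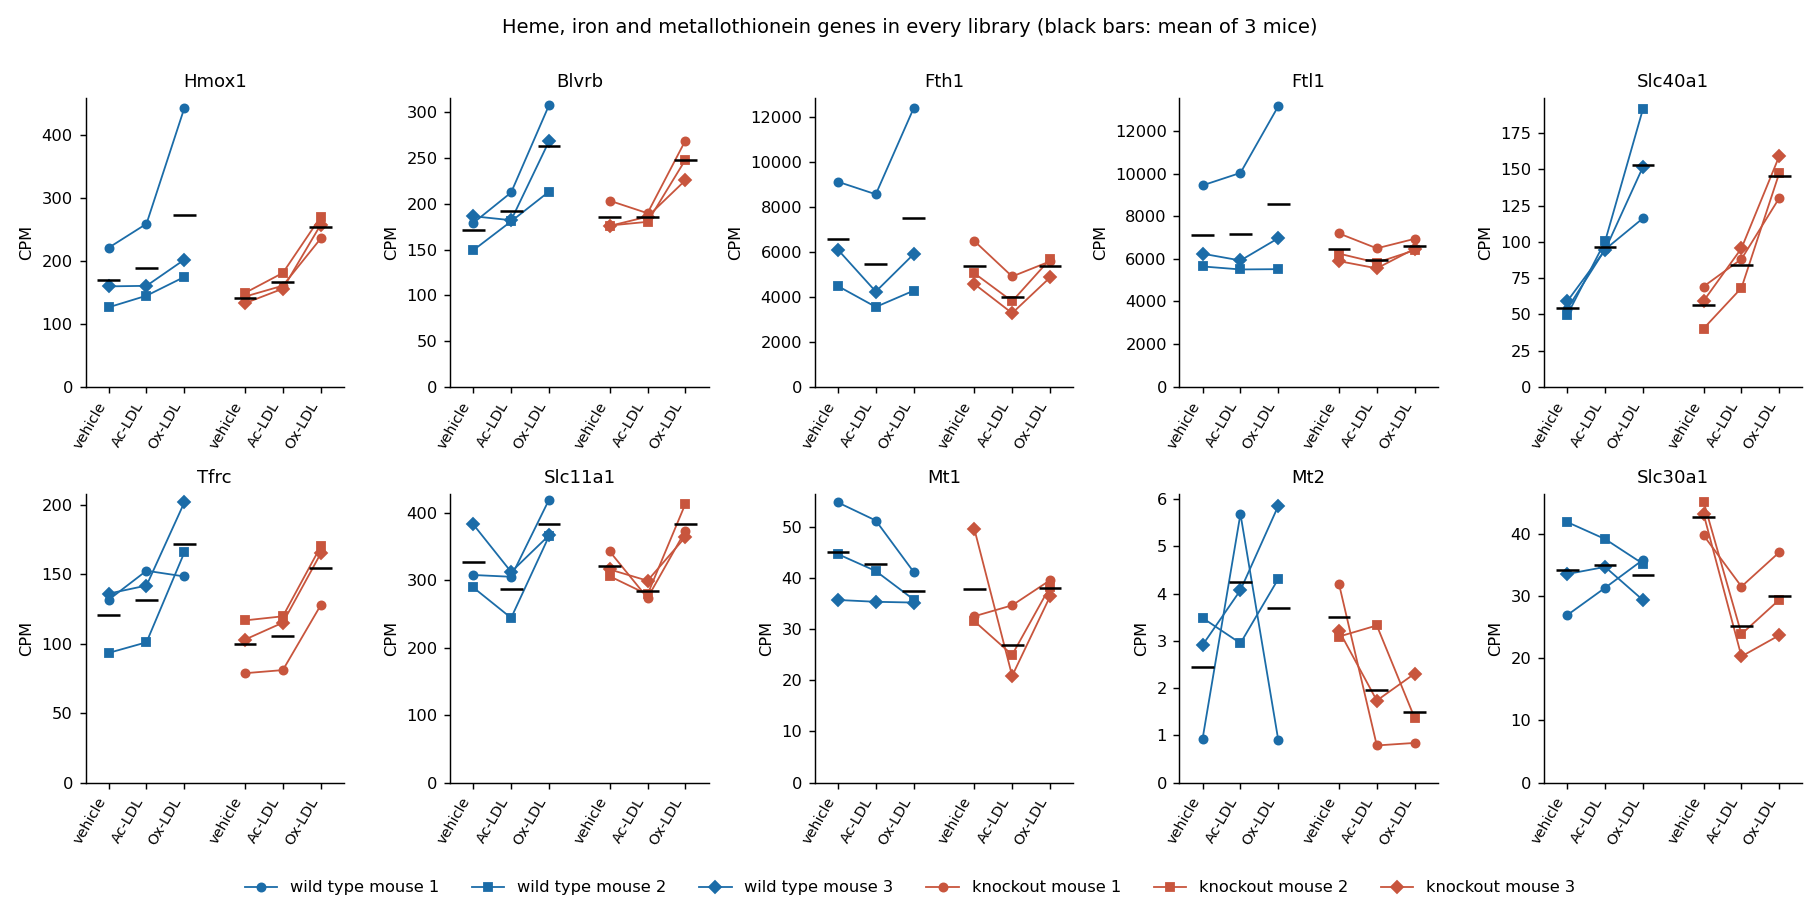
Level of each of the 10 genes (CPM, linear axis from 0, scaled separately for each gene) in the 18 libraries, grouped by genotype and medium. Lines join the 3 libraries of a mouse and black bars mark the mean of 3 mice. Slc40a1 climbs from vehicle through Ac-LDL to Ox-LDL in all 6 mice, and wild type mouse 1 lies above the other wild type mice in Hmox1, Fth1 and Ftl1 in every medium.

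Blvrb rose in Ox-LDL in wild type cells, and Hmox1 in both genotypes once the mouse was a block. Blvrb (ENSMUSG00000040466, chr7:27447978-27466144, plus strand) was at 179, 149 and 186 CPM in vehicle and 308, 213 and 268 CPM in Ox-LDL in wild type mice 1, 2 and 3. In knockout mice it was at 203, 176 and 176 CPM in vehicle and 269, 248 and 226 CPM in Ox-LDL. All Ox-LDL libraries lay above the vehicle libraries of their genotype, while the Ac-LDL libraries, between 180.25 and 212 CPM, overlapped vehicle. The wild type difference of 0.61 ± 0.14 (1.53-fold) passed the threshold (adjusted p = 0.0180). It lost the call without vehicle replicate 2 (adjusted p = 0.167), without Ox-LDL replicate 1 (0.0857) or 3 (0.0866), and in a fit of the compared groups alone (0.333). The knockout difference of 0.42 ± 0.13 did not pass without the mouse as a block (adjusted p = 0.123) and passed with it (0.00352), and also in a fit of the compared groups alone.

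Hmox1 (ENSMUSG00000005413, chr8:75093621-75100589, plus strand) was at 221, 126 and 159 CPM in vehicle, 259, 145 and 160.3 CPM in Ac-LDL and 443, 174 and 202 CPM in Ox-LDL in wild type mice 1, 2 and 3. In knockout mice it was at 143, 149 and 133 CPM in vehicle, 161, 181 and 156 CPM in Ac-LDL and 235, 269.9 and 257 CPM in Ox-LDL. Each mouse had its highest Hmox1 in Ox-LDL. The 3 knockout Ox-LDL libraries stood clear of the other knockout libraries, whereas wild type groups overlapped, with mouse 1 high in every medium. The log2 difference between Ox-LDL and vehicle was 0.69 ± 0.26 in wild type (adjusted p = 0.290) and 0.85 ± 0.26 in knockout cells (0.0906), and with the mouse as a block both passed (adjusted p = 1.63e-04 and 4.78e-07). Without a block both were called with no filter on low counts, and the knockout difference also by DESeq2 and with the compared groups alone. Without the 3 libraries of wild type mouse 1 the wild type difference with the block was 0.40 ± 0.12 (adjusted p = 0.0420), a setting chosen after the values were seen.

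In Ox-LDL the comparison of genotypes for Hmox1 turned on that mouse. Knockout minus wild type was -0.09 (95% interval -0.60 to 0.43) with all mice and 0.44 ± 0.12 without wild type mouse 1, and neither passed the threshold (adjusted p = 0.986 and 1). The knockout response to Ox-LDL exceeded that of wild type by 0.16 ± 0.36 with all mice and by 0.46 ± 0.18 without that mouse, at an adjusted p of 1 in both.

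**Figure D2:**
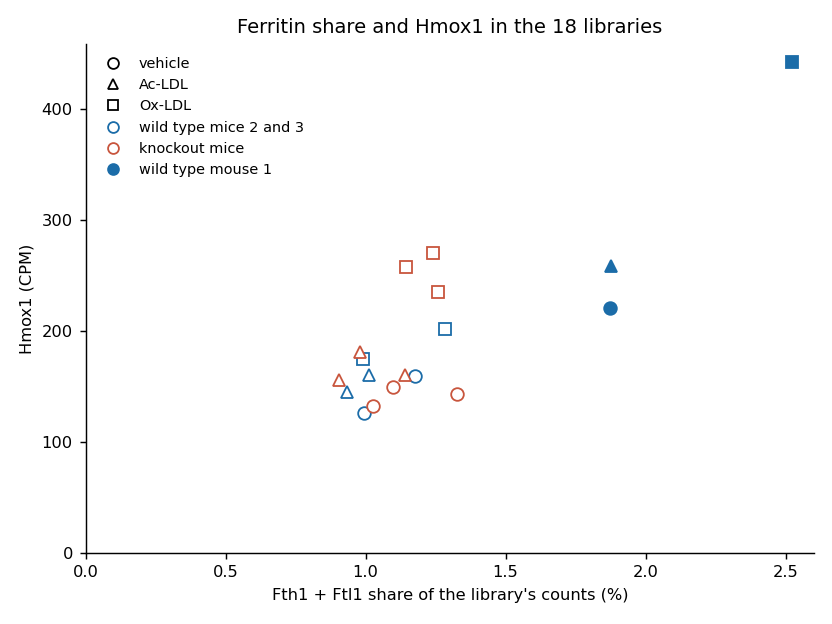
Hmox1 level (CPM, vertical axis) against the share of the library's counts assigned to Fth1 and Ftl1 (percent, horizontal axis), with 1 point per library, the shape giving the medium and the colour the genotype. The 3 filled points of wild type mouse 1 lie at 1.87 to 2.52%, to the right of all other libraries, which lie at 0.905 to 1.33%.

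Ferritin transcripts were abundant and differed more between wild type mouse 1 and the other mice than between media. Together Fth1 (ENSMUSG00000024661, chr19:9980598-9985098, plus strand) and Ftl1 (ENSMUSG00000050708, chr7:45457944-45459884, minus strand) took 0.905 to 1.33% of the counts in 15 libraries, and 1.87, 1.88 and 2.52% in vehicle, Ac-LDL and Ox-LDL in wild type mouse 1. That mouse had 9105, 8549 and 12372 CPM of Fth1 in the 3 media. The other wild type libraries held 3545 to 6088 CPM and the knockout libraries 3269 to 6476 CPM. Libraries of wild type mouse 1 were also among the shallower ones, at 1043492 to 1131744 counts, and the part of depth in its ferritin level was not tested.

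Within each mouse, Fth1 had its lowest level in Ac-LDL. Knockout mice 1, 2 and 3 had 6476, 5043 and 4567 CPM of Fth1 in vehicle, 4898, 3798 and 3269 CPM in Ac-LDL, and 5571, 5667 and 4854 CPM in Ox-LDL. The groups overlapped, since mouse 1 was highest in vehicle and Ac-LDL, but the drop was seen in each of the 3 mice. The knockout difference between Ac-LDL and vehicle was -0.43 with an SE of 0.32 and an adjusted p of 0.846 without the block, and it passed with the block at an SE of 0.10 (adjusted p = 0.00987). In wild type cells it was -0.32 ± 0.10 with the block (adjusted p = 0.0925), and -0.42 ± 0.11 (0.0161) once mouse 1 was left out. Ox-LDL exceeded Ac-LDL by 0.43 ± 0.10 in wild type and 0.45 ± 0.10 in knockout cells with the block (adjusted p = 0.0250 and 0.0129), of which the wild type call was lost without mouse 1 (0.143). Without the block, leaving out 1 library of mouse 1 turned the wild type values. The difference between Ox-LDL and Ac-LDL was -0.10 without its Ox-LDL library, and that between Ac-LDL and vehicle 0.052 without its vehicle library.

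Ftl1 was called in no comparison of media, with or without the block. In knockout cells it lay between 5554 and 7191 CPM in all 9 libraries, with differences between media from -0.11 to 0.15. In wild type cells it differed from vehicle by 0.01 in Ac-LDL and 0.27 in Ox-LDL, and Ox-LDL from Ac-LDL by 0.26. For Ox-LDL against vehicle these values lie above those of Fth1 (0.20 in wild type and 0.00 in knockout cells), for which no difference passed either. Ftl1 also shared 64.1% of its 31-base words with other annotated genes, mostly the pseudogene Ftl1-ps1, which received 2.79% as many counts. Its level is therefore less certain than that of Fth1, which shared 3.24%. Adding the counts of Ftl1-ps1 to Ftl1 changed no count of calls among the 10 genes. Counts of other genes that share words with Ftl1 or Fth1 were not added. Across the 18 libraries log2 levels of Fth1 and Ftl1 had a Pearson r of 0.95, with libraries of the same mouse and medium shared between the points.

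Of Tfrc and Slc11a1, which bring iron into the cytosol, Tfrc was higher in Ox-LDL than in vehicle and Slc11a1 higher in Ox-LDL than in Ac-LDL, in both genotypes, with the mouse as a block. Tfrc (ENSMUSG00000022797, chr16:32608920-32632794, plus strand) was at 132, 93.4 and 136 CPM in vehicle, 153, 101 and 142 CPM in Ac-LDL and 148, 166 and 202 CPM in Ox-LDL in wild type mice 1, 2 and 3. In knockout mice the values were 78.8, 117 and 103 CPM, then 81.1, 119.8 and 115 CPM, then 128, 170.15 and 165 CPM. Ox-LDL libraries lay above all vehicle libraries in both genotypes, and Ac-LDL libraries overlapped vehicle. The difference between Ox-LDL and vehicle was 0.52 ± 0.19 in wild type and 0.64 ± 0.19 in knockout cells (adjusted p = 0.269 and 0.0848), and it passed with the mouse as a block (0.00257 and 2.70e-04) or, without it, with no filter on low counts in both genotypes and with the compared groups alone in knockout cells. Against Ac-LDL it passed with the block in knockout cells (0.55 ± 0.12, adjusted p = 0.00765) but not in wild type cells (0.41 ± 0.12, 0.102), where mouse 1 had less Tfrc in Ox-LDL than in Ac-LDL. Without that mouse the wild type difference was 0.60 ± 0.13 and passed (adjusted p = 0.00580). Tfrc and Slc40a1, an importer and an exporter, thus had their highest mean level in the same medium in both genotypes.

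Slc11a1 (ENSMUSG00000026177, chr1:74375195-74386062, plus strand) was at 305, 244 and 312 CPM in Ac-LDL and 419.5, 366 and 367 CPM in Ox-LDL in wild type mice 1, 2 and 3. In knockout mice it was at 274, 279 and 299 CPM in Ac-LDL and 373, 413 and 364 CPM in Ox-LDL. Vehicle levels, between 289 and 383 CPM, fell between the 2 lipoproteins in mean, and those of knockout cells overlapped neither. Ox-LDL exceeded Ac-LDL by 0.42 ± 0.13 in wild type and 0.43 ± 0.13 in knockout cells. These differences passed with the mouse as a block (adjusted p = 0.0254 and 0.0133) and not without it (0.7005 and 0.627), and the wild type call was lost without mouse 1 (0.110). Against vehicle the differences for Ox-LDL, 0.23 in wild type and 0.25 in knockout cells, passed in neither fit.

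**Figure D3:**
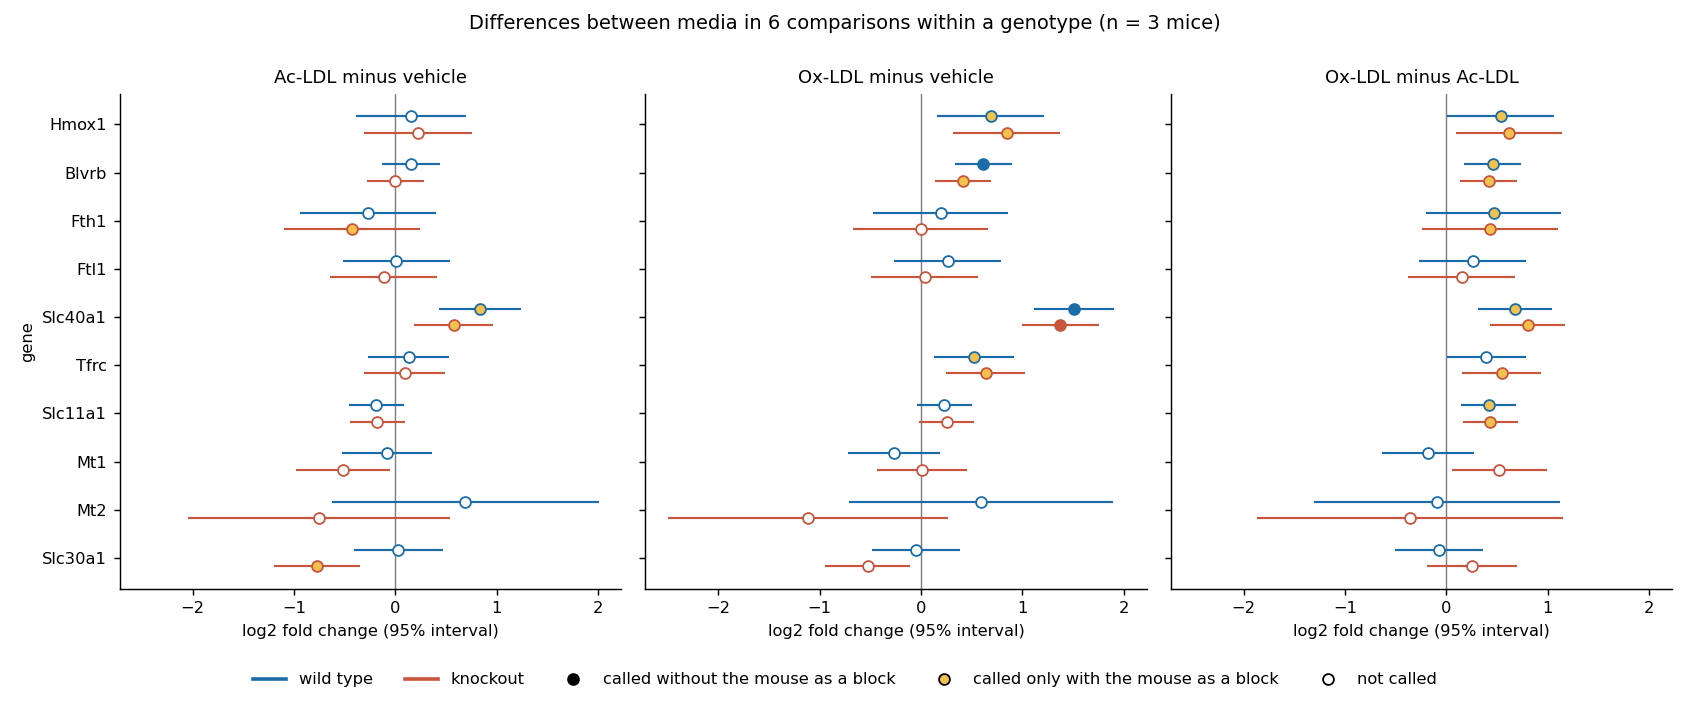
Log2 fold changes (horizontal axis) of the 10 genes with their 95% intervals from the fit without a block, for Ac-LDL minus vehicle, Ox-LDL minus vehicle and Ox-LDL minus Ac-LDL, in wild type (blue) and knockout (red) cells. Points filled in the colour of the genotype passed an adjusted p of 0.05 in that fit (Blvrb and Slc40a1 in wild type and Slc40a1 in knockout cells, all for Ox-LDL minus vehicle), yellow points passed with the mouse as a block but not in that fit, and open points passed in neither of these fits.

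The zinc genes did not share this pattern. Slc30a1 (ENSMUSG00000037434, chr1:191906767-191913247, plus strand) was at 39.7, 45.1 and 43.1 CPM in vehicle, 31.5, 23.8 and 20.3 CPM in Ac-LDL and 37.0, 29.4 and 23.7 CPM in Ox-LDL in knockout mice 1, 2 and 3. Both lipoprotein groups lay below vehicle in these mice. In wild type mice it stayed between 26.9 and 41.8 CPM in all media, with overlapping groups. The knockout difference between Ac-LDL and vehicle was -0.78 ± 0.21 (adjusted p = 0.113), and it passed with the mouse as a block (0.0140). For Ox-LDL it was -0.53 ± 0.20 and passed in neither fit (0.242 without and 0.0843 with the block). The knockout response to Ac-LDL was lower than the wild type response by 0.81 on the log2 scale (interval of the difference -1.42 to -0.20), with an unadjusted p of 0.0116 and an adjusted p of 0.9999 in edgeR's test.

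Mt1 (ENSMUSG00000031765, chr8:94179082-94180327, plus strand) was at 34.6, 25.0 and 20.8 CPM in Ac-LDL in knockout mice 1, 2 and 3, and at 51.2, 41.3 and 35.3 CPM in wild type mice. The groups did not overlap, but the difference of -0.68 ± 0.23 did not pass the threshold (adjusted p = 0.990, unadjusted p = 0.00633 in edgeR's test). In vehicle the knockout libraries were at 32.5, 31.5 and 49.6 CPM and the wild type libraries at 54.7, 44.6 and 35.7 CPM, and in Ox-LDL all 6 lay between 35.2 and 41.1 CPM. Neutrophil markers, 8 in all, summed in Ac-LDL to 25.5 to 64.5 CPM in knockout and 78.8 to 216 CPM in wild type cells. Retnlg was at 0 in every group. In Ox-LDL, where Mt1 levels overlapped, these markers summed to 62.9 to 114 CPM in knockout and 142 to 251 CPM in wild type cells. Their part in the Mt1 difference in Ac-LDL was not tested. Of 6740 genes with a mean of at least 20 CPM, the closest to Mt1 by Pearson correlation of log2 CPM over 18 libraries was Ngp, a neutrophil granule gene on that list (r = 0.69). It was followed by Poglut1 (0.69), Vapa (0.68), Psmb7 (0.68) and Ints14 (0.67).

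Mt2 (ENSMUSG00000031762, chr8:94172664-94173568, plus strand) had 1 to 9 counts per library, so only a large difference could have been detected at this depth. A count of 0 would have allowed up to 3 counts, counting error only. The antisense gene Gm45774 overlaps it on the other strand and had 0 to 2 counts. Sequence before the start of the zinc genes was searched on both strands for the core of the metal response element, TGCACNC or TGCGCNC, to which the zinc-sensing factor MTF1 binds. In the 250 bases before the start that RefSeq gives (GRCm38.p6), Mt2 held 3 cores, Mt1 and Slc30a1 1 each. Sequence on either side of these windows was not searched, so a gene may have more cores than were counted. At least 1 core was found in 21.4% of 32851 promoters and 3 or more in 1.26%. The cores found are shown in capitals within 27 bases, on the strand of the gene, because such cores are the feature by which these genes are known to follow free zinc.
Mt2, chr8:94172385-94172411: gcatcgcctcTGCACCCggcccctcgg
Mt2, chr8:94172480-94172506: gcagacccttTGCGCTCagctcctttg
Mt2, chr8:94172558-94172584: gggggagggcGTGTGCAggctctgtcc
Mt1, chr8:94179056-94179082: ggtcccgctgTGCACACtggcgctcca
Slc30a1, chr1:191906728-191906754: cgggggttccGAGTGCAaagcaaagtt
The third core of Mt2 and that of Slc30a1 read on the opposite strand. The promoter of Tfrc at chr16:32608646-32608895 held 2 overlapping cores, and its other promoter, at chr16:32608872-32609121, held 0. The antioxidant response element, TGACNNNGC or TGAGNNNGC, was found in 23% of all promoters. Among the 8 of the 10 genes with a promoter searched it lay in those of Blvrb, Slc11a1, Mt2 and Slc30a1. For Blvrb it was in the promoter at chr7:27447728-27447977 and not in that at chr7:27452168-27452417. The E-box CACGTG (6.02% of all promoters) lay in 0 of the promoters of these 8 genes. Promoters of Hmox1 and Slc40a1 were not analysed here.

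Counted over all 10 genes, Ox-LDL against vehicle gave the calls. In wild type cells 2 genes (Blvrb and Slc40a1) were higher and 0 lower, against 1.34% of all genes called in either direction, and in knockout cells 1 (Slc40a1) was higher and 0 lower, against 2.31%. With the mouse as a block the same comparisons called 4 genes each, Hmox1, Blvrb, Slc40a1 and Tfrc, all higher, against 4.40 and 7.18% of all genes. The wild type count with the block stayed at 4, of the same genes, without mouse 1. Over all 12579 genes then tested, 214 were higher and 382 lower. Groups did not overlap, in either direction, for 3 of the 10 genes in wild type (11.8% of all genes) and for 7 in knockout cells (21.6%). In wild type these were Blvrb, Slc40a1 and Tfrc, all above vehicle. In knockout cells Hmox1, Blvrb, Slc40a1, Tfrc and Slc11a1 lay above vehicle. Slc30a1 and Mt2 lay below it, Mt2 with 1 to 4 counts in Ox-LDL and 5 to 7 in vehicle. The median log2 difference of the 10 genes was 0.39 in wild type and 0.14 in knockout cells, beside 0.01 and 0.00 over all genes tested.

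Ac-LDL against vehicle called 0 of the 10 genes in either genotype with edgeR's quasi-likelihood test (0.472% of all genes in wild type and 0.521% in knockout cells). At an unadjusted p under 0.05 there were 1 and 3 (7.34 and 7.53% of all genes). DESeq2 called 1 (Slc40a1) and 0, against 14 genes higher and 60 lower in wild type and 13 and 63 in knockout cells among the 12288 genes it tested. The block raised the counts to 1 in wild type (Slc40a1, against 2.16% of all genes) and 3 in knockout cells (Slc40a1 higher, Fth1 and Slc30a1 lower, against 2.48%). Without wild type mouse 1 the blocked wild type count was 2, Fth1 and Slc40a1, beside 142 genes higher and 190 lower of 12579. In wild type cells 1 of the 10 genes had Ac-LDL libraries wholly above vehicle (5.51% of all genes) and 0 wholly below, and in knockout cells the groups did not overlap in either direction for 3 genes (16.7%). Of those 3, Hmox1 lay above vehicle and Slc11a1 and Slc30a1 below.

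Ox-LDL against Ac-LDL also called 0 genes in both genotypes without a block (0.00814 and 0.0651% of all genes). The unadjusted counts were 5 and 6 of the 10 genes (5.14 and 5.55% of all genes). DESeq2 called 0 in wild type and 1 (Slc40a1) in knockout cells, against 5 genes higher and 6 lower in wild type and 8 and 11 in knockout cells over all genes. With the block 5 genes were higher in wild type (Hmox1, Blvrb, Fth1, Slc40a1 and Slc11a1, against 0.732% of all genes) and 6 in knockout cells (these and Tfrc, against 1.38%). The wild type count with the block was 2 (Slc40a1 and Tfrc) without mouse 1, beside 32 genes higher and 45 lower of 12579. Groups did not overlap for 3 genes in wild type (9.19% of all genes, either direction) and 6 in knockout cells (13.4%), all higher in Ox-LDL. Hmox1, Blvrb, Fth1, Slc40a1 and Slc11a1 had a higher level in Ox-LDL than in Ac-LDL in 6 of 6 mice. So did Ftl1, but by a log2 difference of only 0.003 in wild type mouse 2. The share of all genes with this order in every mouse was not counted.

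**Figure D4:**
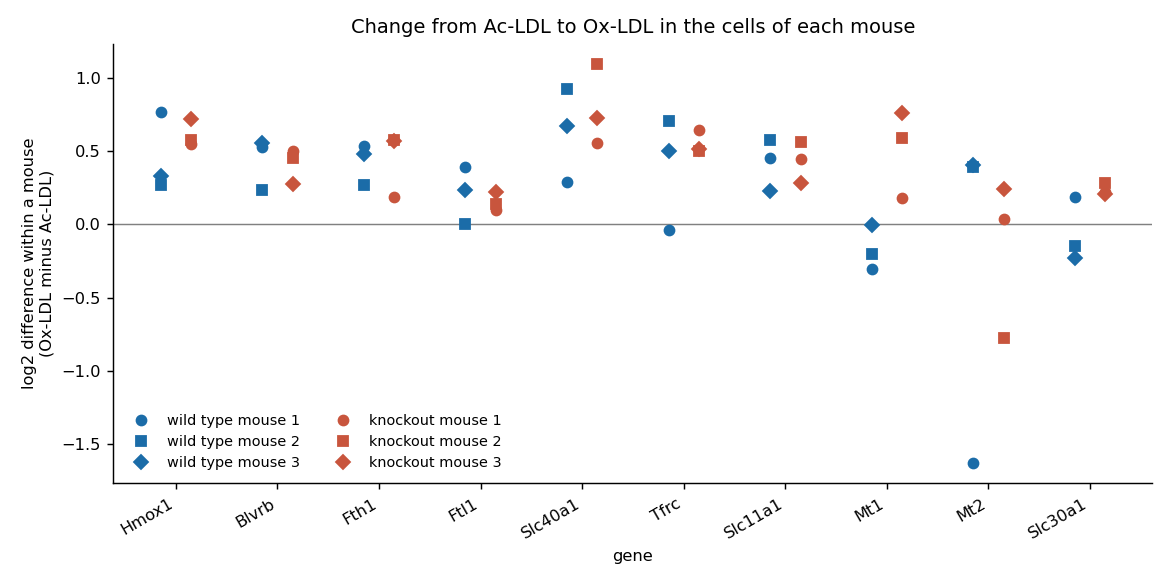
Log2 difference between Ox-LDL and Ac-LDL (vertical axis) in the cells of each mouse for the 10 genes, with 3 wild type mice in blue and 3 knockout mice in red and the marker shape giving the mouse. Points of Hmox1, Blvrb, Fth1, Slc40a1 and Slc11a1 lie above 0 in all 6 mice, Tfrc falls below 0 in wild type mouse 1, and Mt1 is at or below 0 in wild type and above 0 in knockout mice.

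Between genotypes no gene of the 10 passed. Knockout against wild type called 0 of 10 in vehicle, Ac-LDL and Ox-LDL (0.00814, 0.0163 and 0.00814% of all genes in edgeR's test), with 0, 2 and 0 at an unadjusted p under 0.05 (3.95, 4.87 and 4.78% of all genes) and 0 by DESeq2 in each. In vehicle the differences ran from -0.29 (Fth1) to 0.45 (Mt2). The tests of a difference between the genotypes' responses called 0 genes for Ac-LDL and 0 for Ox-LDL (0.00% of all genes in both), with 1 (Slc30a1) and 0 at an unadjusted p under 0.05 (2.66 and 2.75% of all genes) and 0 by DESeq2. With the mouse as a block they also called 0, against 0.0407% of all genes for Ac-LDL and 0.00% for Ox-LDL. For single genes the intervals were wide: the Ox-LDL response differed between genotypes by 0.11 for Tfrc (95% interval -0.44 to 0.67) and by -0.20 for Blvrb (-0.59 to 0.20). An exact permutation test of 3 against 3 libraries could not have gone below a two-sided p of 0.1.

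Of 71 other genes of heme, iron and zinc handling, 61 were tested, and Slc11a2 stood out among them. It encodes DMT1, which carries iron out of the endosome after uptake through Tfrc. Its level in knockout mice 1, 2 and 3 was 56.0, 62.4 and 58.6 CPM in vehicle, 28.3, 29.95 and 23.7 CPM in Ac-LDL, and 25.2, 21.2 and 21.9 CPM in Ox-LDL. In wild type mice it was 33.4, 39.0 and 51.0 CPM, then 19.9, 31.7 and 22.4 CPM, then 22.4, 29.0 and 18.2 CPM. Both lipoproteins lay below vehicle in every comparison without overlap. The knockout differences were -1.11 ± 0.20 for Ac-LDL (adjusted p = 0.00440, and 0.0774 without Ac-LDL replicate 3) and -1.38 ± 0.21 for Ox-LDL (2.17e-04). The wild type differences were -0.73 ± 0.22 and -0.83 ± 0.22 (adjusted p = 0.2003 and 0.0580), of which that for Ox-LDL passed with the mouse as a block (0.0101). The responses differed between genotypes by -0.38 ± 0.30 and -0.55 ± 0.30, neither past the threshold (adjusted p = 0.9999 and 1). So in both lipoproteins every mouse, of either genotype, had more Slc40a1, the exporter, and less Slc11a2, an importer, than in vehicle. Tfrc, also an importer, did not share the fall, since its highest mean was in Ox-LDL.

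**Figure D5:**
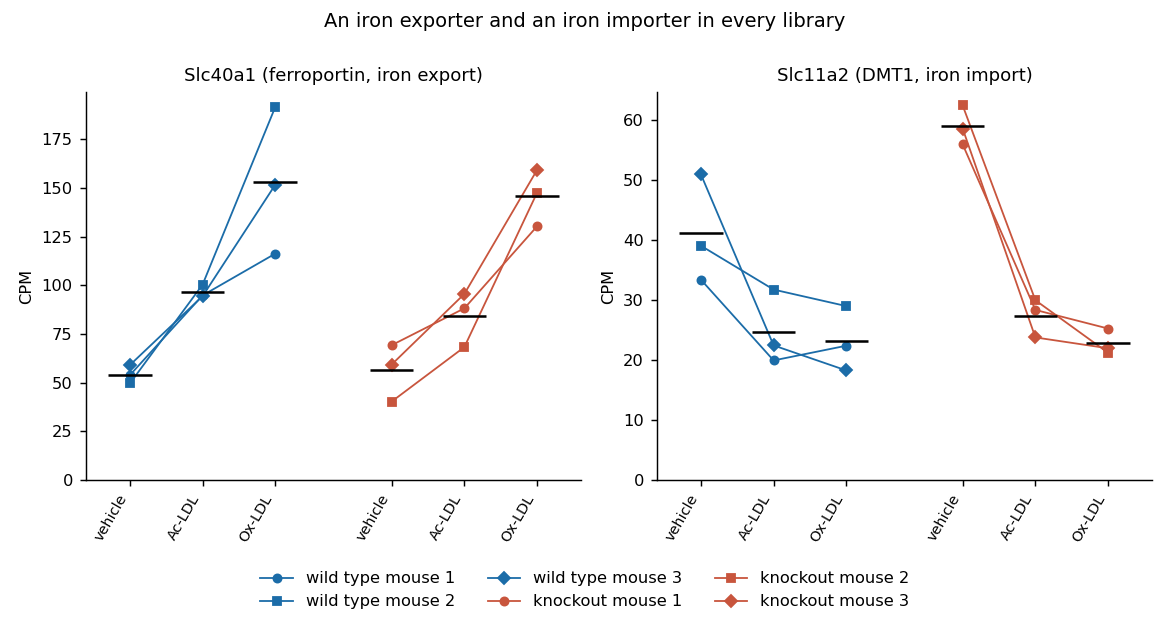
Slc40a1 (ferroportin) and Slc11a2 (DMT1) in every library (CPM, linear axes from 0). Lines join the libraries of a mouse and black bars mark the mean of 3 mice; Slc40a1 is lowest and Slc11a2 highest in vehicle in all 6 mice.

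Few of the remaining genes of the list passed. Without a block, Ac-LDL called 0 of 61 higher or lower in wild type, and 0 higher and 1 lower (Slc11a2) in knockout cells, beside 0.472 and 0.521% of all genes. Ox-LDL called 0 higher and 1 lower in wild type, the zinc importer Slc39a1 (188 ± 3.7 CPM in vehicle and 129.98 ± 14.5 CPM in Ox-LDL, log2 difference -0.54, adjusted p = 0.0242). In knockout cells it called 0 higher and 2 lower, Slc11a2 and Slc39a13, a zinc transporter of the secretory pathway (22.8 ± 2.28 and 12.1 ± 0.269 CPM, -0.91, adjusted p = 0.0481). Over all genes Ox-LDL called 1.34% in wild type and 2.31% in knockout cells. Slc39a1 lost its call without any of 4 libraries (adjusted p up to 0.133) and Slc39a13 without any of 6 (up to 0.198), and Slc39a13 overlaps Psmc3, which had 615% as many counts. Ox-LDL against Ac-LDL and the comparisons of genotypes called 0 of 61.

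The block added genes of iron and heme traffic. With it Lrp1, a receptor that takes up heme bound to hemopexin as well as lipoproteins, was higher in Ac-LDL than in vehicle in wild type (log2 difference 0.37 ± 0.10, adjusted p = 0.0462) and knockout cells (0.38 ± 0.10, 0.0315), and higher in Ox-LDL in knockout cells (0.36 ± 0.10, 0.0208). Ncoa4, which carries ferritin to the lysosome for breakdown, was lower in knockout cells in Ac-LDL (-0.37 ± 0.10, adjusted p = 0.0349) and in Ox-LDL (-0.37 ± 0.10, 0.0153). Its level there was 255 ± 8.59 CPM in vehicle, 199 ± 24.1 CPM in Ac-LDL and 197 ± 7.57 CPM in Ox-LDL. Alas1, the entry enzyme of heme synthesis, was lower in Ac-LDL in knockout cells (-0.58 ± 0.14, adjusted p = 0.0161). The heme transporter Slc48a1 was higher in Ox-LDL than in Ac-LDL in knockout cells (0.40 ± 0.10, adjusted p = 0.0298). In knockout cells in Ox-LDL the block also called Id1 and Smad7, targets of BMP signalling, higher (1.30 and 0.67, adjusted p = 0.00416 and 0.0373), and Cp, which had 2 to 6 counts in vehicle and 0 in Ox-LDL, lower (adjusted p = 0.0498). In all, the block called 1 gene higher and 0 lower in Ac-LDL in wild type, 0 and 2 in Ox-LDL in wild type, 1 and 3 in Ac-LDL in knockout, and 3 and 5 in Ox-LDL in knockout cells. The shares over all genes with the block were 2.16, 4.40, 2.48 and 7.18% in that order.

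Of the 6740 genes compared, the highest Pearson correlations of log2 CPM with Hmox1 over 18 libraries were those of Prdx1 (r = 0.88), a peroxiredoxin, Rap2a (0.88), Lgals3 (0.87), Creg1 (0.86) and Gclm (0.86), a subunit of the enzyme that starts glutathione synthesis. Among the 10 genes Blvrb was the closest to Hmox1 (0.82), followed by Ftl1 (0.78) and Fth1 (0.70), while Slc30a1 ran the other way (-0.31). Libraries of the same mouse and medium enter all these values, and the 3 libraries of wild type mouse 1 are among the points, so they describe these libraries.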

How the data were processed

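Bone marrow-derived macrophage RNA was extracted per mouse and medium, and libraries were made with a stranded total RNA kit. After trimming with Trim Galore, the authors used STAR for alignment (mm10) and Salmon for the genes of Ensembl release 93, and deposited the estimated counts per gene. Tool versions and the strand setting are not given in the sources used here. Counts were rounded and tested with edgeR 4.0.16 (quasi-likelihood test, TMM scaling, filterByExpr with a minimum count of 2 and a total of 10, Benjamini-Hochberg adjustment over 12290 genes) in 1 fit of 6 groups and 18 libraries. Calls are at an adjusted p under 0.05. SE and 95% intervals are those of the fit without a block unless a block is named. The labels give the same animal number for the 3 media of a mouse, which pairs them. Deviations from the group means correlated between libraries of a mouse (r from 0.0551 to 0.293, 14 of 18 pairs over 0.1) and not between mice of the same replicate number in different genotypes (0 of 27). DESeq2 1.42.0, other scaling and filters, the compared groups alone, summed ferritin rows and each library left out were the alternatives. Of the fits, edgeR without a block, DESeq2 and edgeR with the mouse as a block were first run on simulated data. The simulated data held no difference between mice, so they did not test how the block deals with one. The 10 genes, the list of 71 genes and the marker lists were chosen with earlier results of these data known. All 10 genes and the list genes that passed were named, at most 5 per direction and comparison. Sequences came from the GRCm38 genome with the GENCODE M21 annotation and from RefSeq. Figures were drawn with matplotlib.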

Additional observations from a re-analysis of the deposited data

How the results depend on the processing

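The Slc40a1 differences between Ox-LDL and vehicle kept their direction and call under all alternatives run. Some wild type differences turned with 1 library left out. Fth1 ran from -0.75 to 0.052 for Ac-LDL against vehicle and from -0.10 to 0.95 for Ox-LDL against Ac-LDL. Ftl1 ran from -0.31 to 0.28 for Ac-LDL and from -0.19 to 0.54 for Ox-LDL against vehicle, and from -0.19 to 0.59 between the lipoproteins, and in knockout cells from -0.026 to 0.13 for Ox-LDL. With the block Ftl1 was -0.011 for Ac-LDL in wild type. Knockout minus wild type ran from -0.50 to 0.035 for Fth1 in vehicle and from -0.31 to 0.43 for Hmox1 in Ox-LDL. The difference of the Ox-LDL responses ran from -0.085 to 0.67 for Hmox1, from -0.32 to 0.080 for Slc40a1 and from -0.016 to 0.27 for Tfrc. Of the 10 genes, Ac-LDL against vehicle in wild type called 0, and 1 with DESeq2, library size scaling, no filter or the mouse as a block. Over all genes it called 8 higher and 50 lower. The other settings called 14 and 60, 11 and 43, 60 and 116, and 89 and 176 in that order. Without a filter 22179 genes were tested. Ox-LDL against vehicle in wild type called 2. It called 4 with no filter or the mouse as a block and 1 with the compared groups only, and between 1 and 2 with a library left out. Over all genes it called 34 higher and 131 lower. No filter gave 101 and 236, the block 188 and 353, and the compared groups 9 and 53. With a library left out, 16 to 59 genes were higher and 75 to 185 lower. Ac-LDL against vehicle in knockout cells called 0, and 3 with the block. Over all genes it called 9 higher and 55 lower, and 98 and 207 with the block. Ox-LDL against vehicle in knockout cells called 1, against 2 with DESeq2, 3 with no filter, 4 with the compared groups only and 4 with the block. Over all genes it called 81 higher and 203 lower. The other settings called 90 and 209, 148 and 343, 249 and 502 (of 11336 tested), and 290 and 592 in that order. Ox-LDL against Ac-LDL called 0 in wild type, 1 with no filter and 5 with the block. Over all genes it called 0 higher and 1 lower, 37 and 36, and 46 and 44 in that order. In knockout cells it called 0, 1 with DESeq2, 2 with no filter, 2 with the compared groups only and 6 with the block. Over all genes these were 1 higher and 7 lower, 8 and 11, 34 and 57, 23 and 31, and 62 and 107. Without wild type mouse 1, chosen after the data were seen, Ox-LDL against vehicle in wild type called 1. Over all 12579 genes tested without that mouse, 71 were higher and 176 lower. The Ftl1 difference for Ac-LDL in wild type was then -0.052 without and -0.050 with the block, knockout minus wild type 0.011 for Fth1 in vehicle and 0.44 for Hmox1 in Ox-LDL, and the difference of the Tfrc responses to Ox-LDL -0.026 without and -0.043 with the block. With the mouse as a block and mouse 1 left out, wild type counts were 2 for Ac-LDL against vehicle, 4 for Ox-LDL against vehicle and 2 for Ox-LDL against Ac-LDL. Over all genes these were 142 higher and 190 lower, 214 and 382, and 32 and 45 in that order. The comparisons of genotypes and of responses called 0 under all alternatives run. The causes were not tested, other than that the block removes the spread between mice. A median of 1466145 counts per library limits genes such as Mt2, with 77 counts in all.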
